A study of Mus musculus with 24 samples.

Results

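Genomic imprinting was examined here through 50 imprinted genes of the mouse, reported by the chromosomal cluster in which each lies and by the parental allele that is known to be expressed. The 50 genes were chosen by symbol from the 33079 genes of the exon-level expression table, and all 50 symbols were found with 1 row each. Of these, 27 are known for expression from the paternal allele and 23 for expression from the maternal allele, and they lie in 21 loci, of which 12 held 2 or more of the genes and 9 held 1. The RNA came from differentiated mouse embryonic stem (ES) cells that all carry a Per2::Luciferase knock-in, a clock reporter. WT cells were the control on that background, and KO cells were in addition deficient for Rev-erba and Rev-erbb, the genes of the circadian repressors REV-ERBα and REV-ERBβ. Both were differentiated through embryoid bodies for 28 days, treated with 100 nM dexamethasone, which synchronises cellular clocks, and collected every 4 h from 12 h to 56 h. Each genotype gave 12 polyA-selected RNA-seq libraries, 1 for each time point, made from RNA pooled from 3 embryoid bodies. The KO line was made with CRISPR by picking colonies and targeting the Rev-erb genes in succession, so genotype and the history of that line cannot be told apart.

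An imprinted gene is expressed from the copy inherited from one parent. The choice is laid down in the germ line as DNA methylation at imprinting control regions, which often act on a whole cluster of neighbouring genes, and long non-coding RNAs made from one parental chromosome can silence protein-coding genes beside them. Many paternally expressed genes promote fetal growth and many maternally expressed genes restrain it, and imprints are known to be prone to change when ES cells are cultured. The values used here are RPKM, reads scaled to the length of a gene's exons and to the mapped reads of the library, and they sum the RNA of both alleles. Parental origin is therefore given throughout as background knowledge of each gene, and no allele was measured.

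Promoters of 4 genes are printed because the levels of these genes are described in detail below and because they hold the sequence TGCCGC, which the imprint-maintaining zinc finger protein ZFP57 binds when its CpG is methylated. Each run is the 250 bases before the RefSeq start of the gene on build GRCm38.p6, plus strand, and capitals mark TGCCGC or its reverse complement GCGGCA. Meg3 lies at chr12:109540746-109540995, Mest at chr6:30737800-30738049, Plagl1 at chr10:13090582-13090831 and Zdbf2 at chr1:63200108-63200357, all upstream of the RefSeq start. The RefSeq start of Meg3 is 1027 bases from the start used in the expression table and that of Plagl1 is 44 bases from it, so that the last 44 bases printed for Plagl1 lie inside the gene as the table has it, while the starts of Mest and Zdbf2 coincide.
Meg3: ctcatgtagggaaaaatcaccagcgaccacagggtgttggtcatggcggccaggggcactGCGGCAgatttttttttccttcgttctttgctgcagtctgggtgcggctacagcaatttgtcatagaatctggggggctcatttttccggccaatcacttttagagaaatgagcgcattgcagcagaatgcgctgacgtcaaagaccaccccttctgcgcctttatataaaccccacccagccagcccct
Mest: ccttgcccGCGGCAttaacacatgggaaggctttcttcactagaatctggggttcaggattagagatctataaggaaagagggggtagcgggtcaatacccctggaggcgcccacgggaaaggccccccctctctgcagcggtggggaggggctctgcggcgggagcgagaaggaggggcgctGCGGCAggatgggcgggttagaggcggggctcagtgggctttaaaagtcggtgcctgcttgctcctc
Plagl1: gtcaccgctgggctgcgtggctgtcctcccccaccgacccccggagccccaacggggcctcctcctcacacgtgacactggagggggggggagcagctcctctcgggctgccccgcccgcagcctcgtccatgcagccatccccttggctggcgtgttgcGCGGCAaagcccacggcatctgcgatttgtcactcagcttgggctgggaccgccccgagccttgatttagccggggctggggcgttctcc
Zdbf2: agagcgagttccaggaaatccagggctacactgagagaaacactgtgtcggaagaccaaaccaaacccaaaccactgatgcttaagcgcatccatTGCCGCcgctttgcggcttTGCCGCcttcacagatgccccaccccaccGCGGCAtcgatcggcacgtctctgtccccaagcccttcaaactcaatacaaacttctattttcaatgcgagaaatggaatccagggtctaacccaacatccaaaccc

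Meg3 and Plagl1 held 1 such run, Mest held 2 and Zdbf2 held 3. Over windows from 250 bases before to 50 bases after the start, searched on both strands, TGCCGC was found in 10 of the 40 imprinted genes with a promoter in the RefSeq table (25%) and in 11.6% of all 32851 promoters. The other carriers were Copg2, Zim1, Nap1l5, Nnat, Mcts2 and Commd1. The core letters of the element bound by ROR and REV-ERB receptors were searched as TAGGTCA, found in 0 of 40 against 2.61% of all promoters, and as TGGGTCA, found in 1 of 40 (2.5%), that of Rian, against 3.98%. These matches are descriptions of letters, no test was made on them, and GC content ranged from 52.4% to 70.4% among the promoters printed.

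Libraries held between 6183500.5 and 10287969 fragments on exons. Whole-gene exon values of the targeted genes were not lower in KO, with medians of 6.93 RPKM against 4.67 RPKM for Nr1d1 (Rev-erbα) and 3.16 RPKM against 1.83 RPKM for Nr1d2 (Rev-erbβ), and they do not check the labels because the deletion removes part of a gene. Of 15112 genes with a mean above 0.5 RPM (reads scaled to the library alone) in WT or KO, 48 were imprinted genes on the list, each past this filter in both genotypes. The pair under it were Slc22a3, an organic cation transporter at 0.0699 ± 0.0333 RPKM (WT) and 0.142 ± 0.0514 RPKM for KO (SD, n = 12 time points, as for every mean below), and Rasgrf1, a Ras exchange factor at 0.0704 ± 0.0362 and 0.0865 ± 0.0398 RPKM. On this per-length scale, 40 of the 50 genes reached a mean of 1 RPKM in at least 1 genotype and 19 reached 10 RPKM. The cultures were mixed, since markers of mesenchyme, muscle, endoderm, trophoblast, epithelium and leukocytes were present in both genotypes, and in such bulk RNA fewer cells of a type and less RNA per cell cannot be told apart.

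The list of genes was drawn up with KO minus WT values of these data known, so the differences between genotypes below are descriptions with no p-value for a gene. In the fit of limma on log2(RPKM + 0.1), 16 of 48 imprinted genes (33.3%) passed an adjusted p of 0.05 for KO against WT, beside 25.9% of all 15112 genes. Called higher in KO were 7 of the 48 (14.6%), beside 11.2% of all genes, namely Dio3, H13, Kcnq1, Klf14, Mcts2, Slc38a4 and Zrsr1. The other 9 of the 16 were called lower (18.8% of 48), beside 14.7% of all genes. These were Blcap, Cobl, Dlk1, Meg3, Mirg, Plagl1, Ppp1r9a, Rtl1 and Zdbf2. Of the 16, 10 were called in all 20 alternative analyses, while Rtl1 was called in 19, Klf14 and Mirg in 18, Mcts2 in 16, Zrsr1 in 12 and Meg3 in 9. In direction alone, 33 of the 48 had a lower mean in KO (68.8%, against 54.1% of all genes), with a median log2 difference of -0.06 against -0.01 for all genes. Split by the expressed allele, 17 of 26 paternally expressed genes (median -0.07) and 16 of 22 maternally expressed genes (median -0.06) were lower in KO. For a further split, 12 of the 48 were classed as imprinted only in some tissues. This class was set from general knowledge, not from these data, and other listed genes may also be imprinted mainly in some tissues. These are Inpp5f and, in the maternally expressed group, Ascl2, Blcap, Cobl, Commd1, Copg2, H13, Kcnq1, Ppp1r9a, Trappc9, Tssc4 and Ube3a. Of these 12, 9 were lower in KO (median -0.06), as were 24 of the other 36 (median -0.09). At an unadjusted p under 0.05 there were 23 of 48 (47.9%), beside 37.9% of all genes. Nothing about the list is read from these shares.

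**Figure D1:**
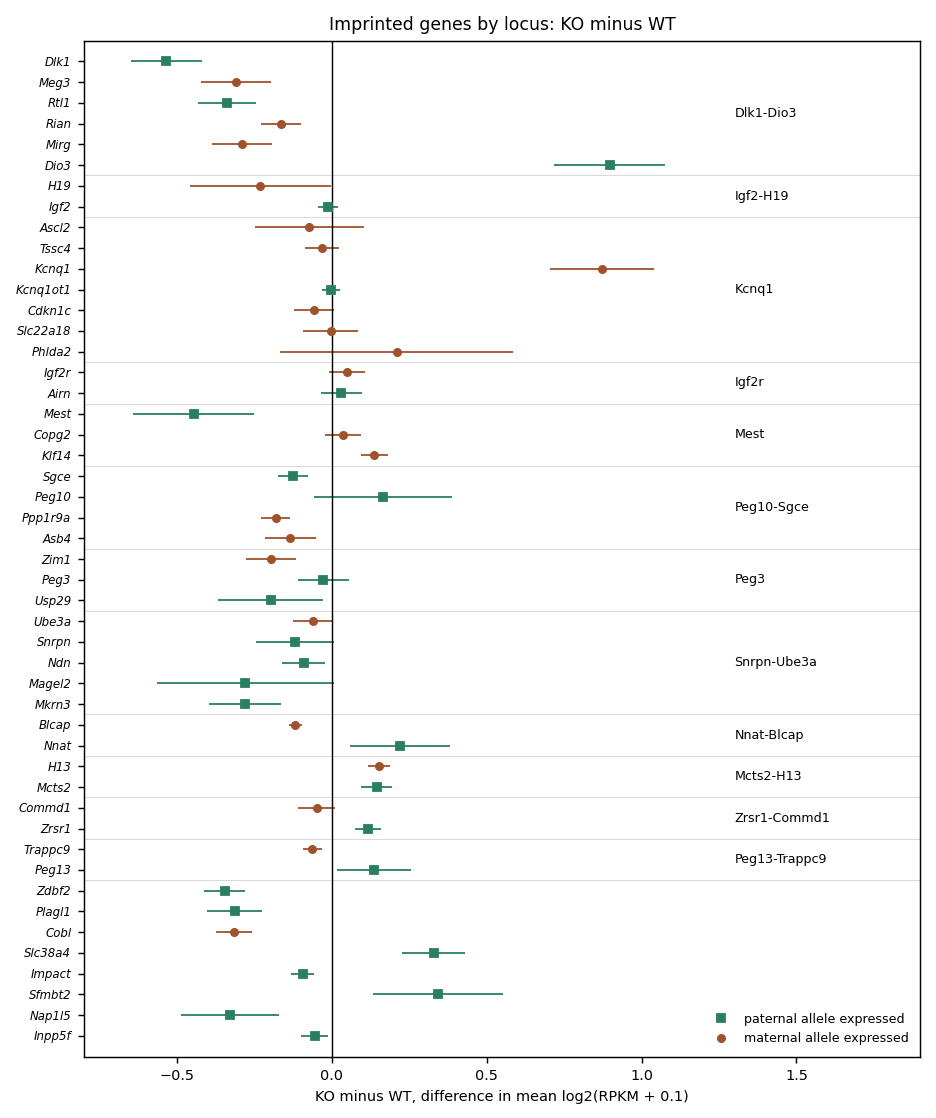
KO minus WT difference in mean log2(RPKM + 0.1) for the 48 imprinted genes past the expression filter, grouped by locus, with single-gene loci at the bottom. Squares are paternally and circles maternally expressed genes, and bars are ± 1 SE over 12 libraries a genotype. Dio3 (0.90) and Kcnq1 (0.87) lie farthest to the right and Dlk1 (-0.53) farthest to the left, while most genes lie within 0.35 of 0.

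The Dlk1-Dio3 cluster of chromosome 12 held the widest range of differences within a locus, with 5 of its 6 genes lower in KO and Dio3 at its far end higher. Dlk1 (chr12:109453455-109463336), a paternally expressed Notch-family protein that keeps progenitors undifferentiated, ranged from 74.5 to 155 RPKM in WT (median 112) and from 59.8 to 96.2 RPKM in KO (median 78.3). Its means were 112 ± 24.2 and 76.9 ± 12.6 RPKM, a log2 difference of -0.53 ± 0.11 (SE). Dlk1 was lower in KO than in WT at 12 of 12 time points, although the ranges of the 2 genotypes overlapped. Dio3 (chr12:110279230-110281097), the paternally expressed deiodinase that inactivates thyroid hormone, lay far lower on the RPKM scale. It ranged from 0.411 to 1.11 RPKM in WT (median 0.829) and from 0.859 to 2.5 RPKM in KO (median 1.5). Dio3 was thus higher in KO than in WT at 12 of 12 time points, with means of 0.754 ± 0.252 and 1.48 ± 0.474 RPKM and a log2 difference of 0.90 ± 0.18, and 9 KO libraries lay above the highest WT library. The libraries held as few as 11 fragments of Dio3, against at least 3567 of Dlk1, so each Dio3 value carries more counting error. Rtl1, a paternally expressed retrotransposon-derived gene of placenta and muscle, was also low, from 0.383 to 0.738 RPKM in WT (median 0.570) and from 0.319 to 0.575 RPKM in KO (median 0.401), and was lower in KO than in WT at 10 of 12 time points (-0.34 ± 0.09).

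The maternally expressed genes of this cluster are long non-coding RNAs transcribed in 1 direction, and all 3 were lower in KO by smaller amounts than Dlk1. Meg3 (chr12:109542023-109568650), whose promoter is printed above, ranged from 11.3 to 25.3 RPKM in WT (median 18.2) and from 10.3 to 18.6 RPKM in KO (median 15.6), with means of 19 ± 3.79 and 15.2 ± 2.47 RPKM (-0.31 ± 0.11). Rian, the host of C/D-box small nucleolar RNAs, was the most abundant of the 3 per length, at 48.6 ± 5.35 RPKM (WT) and 43.4 ± 4.58 RPKM (KO), with a log2 difference of -0.16 ± 0.06, and lower in KO than in WT at 12 of 12 time points. Mirg, the host of a microRNA cluster, ranged from 2.21 to 3.49 RPKM in WT (median 2.83) and from 1.52 to 3.30 RPKM in KO (median 2.39), also lower at 12 of 12 (-0.29 ± 0.10). All 3 RNAs had their lowest value of each genotype at 40 h, and Meg3 and Mirg had their highest value of each genotype at 36 h. The call of Meg3 was lost without the time point at 12, 16, 20, 24, 28, 32, 36, 44, 48 or 52 h, and with no filter on low values. Rtl1 overlaps the transcript 6430411K18Rik, itself at a mean of 0.732 RPKM, over 1379 bases on the opposite strand, and also microRNAs on that strand. Since strand use in counting is not given in the sources used here, reads of the overlap cannot be told apart. The low level of Rtl1 may therefore hold reads of that transcript.

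**Figure D2:**
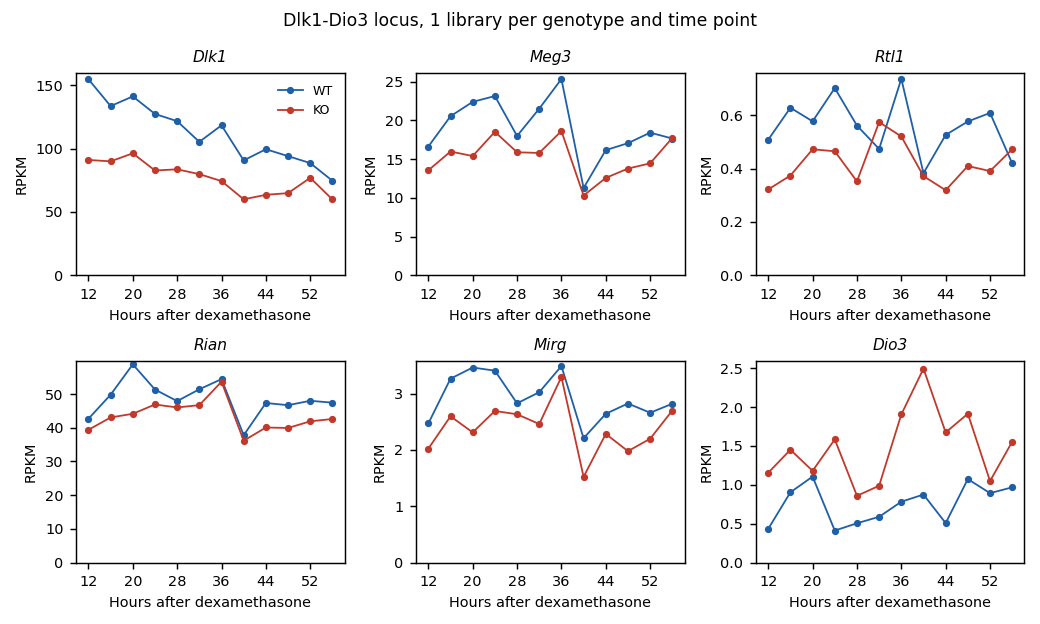
RPKM against hours after dexamethasone for the 6 genes of the Dlk1-Dio3 cluster in chromosomal order, with WT in blue and KO in red and 1 library per point. The KO line runs below the WT line at every time point for Dlk1, Rian and Mirg and above it at every time point for Dio3, and Meg3, Rian and Mirg have their lowest point at 40 h in both genotypes.

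Genes beside the cluster gave a background for it. Of the 3 nearest expressed genes on each side, Begain, itself on a second list of imprinted genes, had means of 1.43 RPKM (WT) and 0.886 RPKM (KO), a log2 difference of -0.61, and was lower at 12 of 12 time points. The median of these 6 neighbours was -0.02.

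The Igf2-H19 domain on chromosome 7 differed little between genotypes. Igf2 (chr7:142650768-142658804), the paternally expressed fetal growth factor, had the highest RPKM of any gene in the table. It ranged from 2981 to 3554 RPKM in WT (median 3289) and from 2918 to 3639 RPKM in KO (median 3272), and took 2.65% to 3.18% of the exonic fragments of a WT library and 2.60% to 3.19% of a KO library. The log2 difference was -0.01 ± 0.03, with KO higher at 6 of 12 time points. H19, the maternally expressed non-coding RNA that shares enhancers with Igf2 and hosts miR-675, was at 49.3 ± 19.4 RPKM (WT) and 41.2 ± 14.1 RPKM (KO), with a log2 difference of -0.23 ± 0.23. H19 varied from 19.7 to 84.9 RPKM among WT libraries alone, so the difference was within its spread. Next to Igf2, the antisense transcript Igf2os was lower in KO than in WT at 12 of 12 time points, at 39.2 RPKM (WT) and 32.1 RPKM (KO), with a log2 difference of -0.29.

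In the Kcnq1 domain, also on chromosome 7, Kcnq1 alone of 7 expressed members was called. Kcnq1 (chr7:143107254-143427042), a potassium channel subunit whose maternal bias is lost in many tissues, ranged from 0.336 to 1.03 RPKM in WT (median 0.564) and from 0.656 to 1.69 RPKM in KO (median 1.16). It was higher in KO than in WT at 11 of 12 time points, with means of 0.607 ± 0.238 and 1.16 ± 0.287 RPKM (0.87 ± 0.17, or 0.43 with a pseudocount of 1 in place of 0.1). Kcnq1ot1, the paternally expressed antisense RNA that silences the domain, lies inside Kcnq1 over 83437 bases, introns of Kcnq1 included. Only exons were counted, 3013 bases for Kcnq1 and 83436 for Kcnq1ot1, and reads where these meet cannot be told apart. Kcnq1ot1 was at 0.0377 ± 0.00822 RPKM (WT) and 0.0373 ± 0.00558 RPKM (KO), far under the level of Kcnq1 per length. Mean fragments were 55.3 (WT) and 54.8 (KO), against 32.2 and 61.1 for Kcnq1. The log2 difference of Kcnq1ot1 was -0.00 ± 0.03, but 0.21 and called after quantile normalization. Its level lies under the pseudocount of 0.1, which shrinks this difference and its SE. Cdkn1c, the maternally expressed cell-cycle inhibitor p57, was the most abundant gene of the domain. It ranged from 97.8 to 134 RPKM in WT (median 108) and from 86.0 to 123 RPKM in KO (median 107), a log2 difference of -0.06 ± 0.06. The other maternally expressed members had small differences beside their spread. Tssc4, a spliceosome-associated protein, was at 7.34 ± 0.830 and 7.14 ± 0.446 RPKM, and Slc22a18, a transporter-like protein, at 1.11 ± 0.209 and 1.10 ± 0.159 RPKM. Phlda2, which limits placental growth, was at 0.977 ± 0.792 and 1.13 ± 0.773 RPKM, and the trophoblast factor Ascl2 at 0.362 ± 0.157 and 0.332 ± 0.123 RPKM.

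In the Igf2r domain of chromosome 17, to which the lowly expressed Slc22a3 also belongs, neither expressed gene was called. Igf2r, the maternally expressed receptor that carries IGF2 to lysosomes, ranged from 40.2 to 57.9 RPKM in WT (median 50.2) and from 40.7 to 57.6 RPKM in KO (median 50.9), with a log2 difference of 0.05 ± 0.06. Airn, the paternally expressed antisense RNA that silences Igf2r, was at 1.34 ± 0.169 and 1.37 ± 0.153 RPKM (0.03 ± 0.07). From start to end, introns included, 28396 bases of Airn lie across Igf2r on the other strand. Only exons were counted, 1396 bases for Airn, and reads where exons of the 2 genes meet cannot be told apart.

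On proximal chromosome 6 the Mest domain held opposite differences. Mest (chr6:30738050-30748466), a paternally expressed endoplasmic reticulum protein of the alpha/beta hydrolase fold and a marker of growing mesoderm, ranged from 9.08 to 28.0 RPKM in WT (median 17.7) and from 6.91 to 19.4 RPKM in KO (median 13.6). Its log2 difference of -0.45 ± 0.20 was the second most negative of the 48, and the gene was not called. Copg2, a coatomer subunit that overlaps Mest tail to tail by 913 bases, was at 12.2 ± 1.29 and 12.5 ± 1.14 RPKM. Klf14, a maternally expressed Kruppel-like factor, ranged from 6.0 to 7.65 RPKM in WT (median 6.70) and from 6.58 to 8.88 RPKM in KO (median 7.47), and was higher in KO than in WT at 10 of 12 time points (0.14 ± 0.04).

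The Peg10-Sgce domain, nearer the centromere of the same chromosome, had 3 of 4 genes lower in KO. Peg10, a paternally expressed retrotransposon-derived gene needed in placenta, was the most abundant, from 19.5 to 58.7 RPKM in WT (median 29.9) and from 17.1 to 59.6 RPKM in KO (median 36.2), with a difference of 0.17 ± 0.22. Sgce, the epsilon-sarcoglycan gene read from the opposite strand beside it, was at 14.3 ± 1.23 and 13.1 ± 0.949 RPKM (-0.13 ± 0.05). Of the maternally expressed genes here, Ppp1r9a, which encodes the actin-binding protein neurabin, was the called one. It ranged from 1.14 to 1.44 RPKM in WT (median 1.24) and from 0.928 to 1.25 RPKM in KO (median 1.11), lower in KO than in WT at 10 of 12 time points (-0.18 ± 0.05). Asb4, an ankyrin-repeat protein, was at 2.73 ± 0.430 and 2.47 ± 0.287 RPKM.

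No gene of the Peg3 and Snrpn-Ube3a domains of chromosome 7 was called, although all 8 had a lower mean in KO. Peg3, a paternally expressed zinc finger protein, ranged from 30.9 to 44.2 RPKM in WT (median 33.6) and from 27.3 to 47.7 RPKM in KO (median 33.9), with a difference of -0.03 ± 0.08. Peg3 overlaps the antisense transcript Peg3os, itself at 42.1 RPKM, over 865 bases. Beside it, the maternally expressed zinc finger gene Zim1 was at 9.16 ± 1.29 and 7.98 ± 1.10 RPKM (-0.20 ± 0.08), and the protease gene Usp29 at 0.232 ± 0.120 and 0.179 ± 0.0549 RPKM. In the Snrpn-Ube3a domain, known from Prader-Willi and Angelman syndromes, Ndn (necdin, a MAGE-family protein) was the most abundant. It ranged from 23.5 to 34.5 RPKM in WT (median 28.3) and from 21.9 to 31.0 RPKM in KO (median 26.5), with a difference of -0.09 ± 0.07. Snrpn, which shares exons with Snurf, was at 4.52 ± 1.29 and 4.07 ± 0.681 RPKM. The ubiquitin ligase gene Ube3a, maternally expressed in neurons, was at 6.08 ± 0.447 and 5.85 ± 0.737 RPKM. Mkrn3 (0.553 ± 0.136 and 0.438 ± 0.107 RPKM) and Magel2 (0.210 ± 0.225 and 0.125 ± 0.0774 RPKM) were near the lower end of the measured range, with as few as 9.5 and 1 fragments in a library.

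At 4 further loci a paternally expressed gene lies inside a listed host gene, and the called differences there were small. In the Mcts2-H13 pair of chromosome 2, H13, a signal peptide peptidase, ranged from 4.13 to 5.33 RPKM in WT (median 4.33) and from 4.44 to 5.42 RPKM in KO (median 4.94), higher in KO than in WT at 12 of 12 time points (0.15 ± 0.04). Mcts2, a retrogene of Mcts1 within it, ranged from 4.66 to 5.98 RPKM in WT (median 5.37) and from 5.30 to 6.78 RPKM in KO (median 5.89), higher at 10 of 12 (0.14 ± 0.05). Both genes of this pair were thus slightly higher in KO, and because they lie on the same strand and Mcts2 resembles its parent gene, the reads of either may be shared. In the Nnat-Blcap pair, also on chromosome 2, Blcap, a small membrane protein gene, ranged from 17.4 to 19.9 RPKM in WT (median 18.8) and from 16.1 to 18.1 RPKM in KO (median 17.3). Blcap was lower in KO than in WT at 12 of 12 time points (-0.12 ± 0.02), the smallest standard error of any called gene of the list. Nnat (neuronatin), which lies in an intron of Blcap on the other strand, ranged from 25.1 to 77.0 RPKM in WT (median 38.3) and from 33.7 to 58.7 RPKM in KO (median 46.6), a difference of 0.22 ± 0.16 within its spread.

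In the Zrsr1-Commd1 pair of chromosome 11, Zrsr1, a retrogene related to the splicing factor gene Zrsr2, ranged from 3.40 to 4.26 RPKM in WT (median 3.84) and from 3.58 to 4.60 RPKM in KO (median 4.28), higher in KO than in WT at 10 of 12 time points (0.12 ± 0.04). Its host Commd1, a protein sorting factor, ranged from 10.2 to 14.3 RPKM in WT (median 11.2) and from 8.93 to 13 RPKM in KO (median 11.2). On chromosome 15, Trappc9, a subunit of a trafficking complex, ranged from 5.60 to 6.54 RPKM in WT (median 5.96) and from 5.21 to 6.22 RPKM in KO (median 5.74), a difference of -0.06 ± 0.03. Peg13, the non-coding RNA inside it, was at 0.767 ± 0.224 and 0.829 ± 0.106 RPKM. Commd1, Trappc9 and Peg13 were not called.

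Of the 9 loci with 1 listed gene, 4 held a called gene. Plagl1 (chr10:13090788-13131695), a paternally expressed zinc finger transcription factor that regulates other imprinted genes, ranged from 111 to 160.0 RPKM in WT (median 136) and from 87.8 to 145 RPKM in KO (median 105). It was lower in KO than in WT at 12 of 12 time points, with means of 138 ± 16.8 and 112 ± 19.4 RPKM (-0.31 ± 0.09). Zdbf2 (chr1:63200358-63314575), a paternally expressed zinc finger gene, ranged from 4.93 to 6.82 RPKM in WT (median 6.36) and from 3.96 to 5.73 RPKM in KO (median 4.81), lower at 11 of 12 (-0.35 ± 0.07). With Dlk1 and Rtl1 these were the paternally expressed genes called lower, and 8 WT libraries of Zdbf2 lay above its highest KO library. Slc38a4, a paternally expressed amino acid transporter of placenta and liver, ranged from 10.8 to 18.4 RPKM in WT (median 13.6) and from 11.9 to 22.5 RPKM in KO (median 17.8), higher in KO than in WT at 10 of 12 time points (0.33 ± 0.10).

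Cobl (chr11:12236676-12464960), an actin nucleator with maternal expression in a few tissues, ranged from 2.13 to 3.21 RPKM in WT (median 2.62) and from 1.83 to 2.44 RPKM in KO (median 2.14). Cobl was lower in KO than in WT at 11 of 12 time points (-0.32 ± 0.06), and 10 WT libraries lay above its highest KO library. Its neighbour Grb10, an imprinted growth inhibitor that is not on the list, differed far more, with means of 52.9 RPKM (WT) and 2.29 RPKM (KO), a log2 difference of -4.48, and was lower at 12 of 12 time points. Of the 123 expressed genes nearest to the loci, counted once each, the median difference was -0.01, and Grb10 gave the lowest value.

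The remaining single-gene loci were not called. Sfmbt2, a Polycomb-family gene of trophoblast, ranged from 0.769 to 2.58 RPKM in WT (median 1.20) and from 1.05 to 2.81 RPKM in KO (median 1.66), higher in KO than in WT at 10 of 12 time points (0.34 ± 0.21). Impact, a translation regulator, ranged from 13.3 to 17.1 RPKM in WT (median 15.6) and from 12.9 to 16.1 RPKM in KO (median 14.6). Inpp5f, an inositol phosphatase gene with an imprinted variant, ranged from 3.18 to 4.06 RPKM in WT (median 3.73) and from 3.14 to 3.95 RPKM in KO (median 3.46). These 3 genes overlapped broadly between genotypes. Nap1l5, a nucleosome assembly gene inside Herc3, ranged from 0.273 to 0.784 RPKM in WT (median 0.550) and from 0.222 to 0.625 RPKM in KO (median 0.347), with as few as 7 fragments in a library.

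Across the list, 2 genes were higher in KO than in WT at 12 of 12 time points (Dio3 and H13, 4.17% of 48, against 2.65% of all genes) and 5 were lower at 12 of 12 (Blcap, Dlk1, Mirg, Plagl1 and Rian, 10.4% against 3.65%). None of these 48 listed genes had all KO libraries above or all KO libraries below all WT libraries, which 0.199% and 0.41% of all genes had.

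The rule that chose the genes did not use the course over time, which was tested, although earlier results of these data were known. A linear change between 12 h and 56 h, taken over both genotypes beside a 24 h cosine, passed an adjusted p of 0.05 for 3 of 48 imprinted genes (6.25%), all falling, where 8.06% of all genes passed, 3.81% fell and 4.25% rose. Dlk1 fell by 0.45 ± 0.04 (SE) on the log2 scale per 24 h (limma, adjusted p = 5.87e-06). In WT it was 155 RPKM at 12 h and 74.5 RPKM at 56 h, and in KO 91.0 RPKM and 59.8 RPKM. Plagl1 fell by 0.32 ± 0.05 per 24 h (limma, adjusted p = 0.000399), from a mean of 149.9 ± 11.1 RPKM over the first 6 WT time points to 127 ± 12.9 over the last 6, and from 127 ± 15.8 to 96.9 ± 6.33 RPKM in KO. Cdkn1c fell by 0.13 ± 0.03 per 24 h (limma, adjusted p = 0.0256), a call that was lost when the time point at 12, 20, 40, 44 or 56 h was left out (adjusted p up to 0.111). Dlk1 and Plagl1 passed in all 19 alternatives. Dio3 had an estimate of 0.43 ± 0.14 per 24 h (limma, adjusted p = 0.0663) and passed without the time point at 20 or at 44 h (adjusted p = 0.0412 and 0.00967). Time after dexamethasone and age of the culture cannot be told apart.

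**Figure D3:**
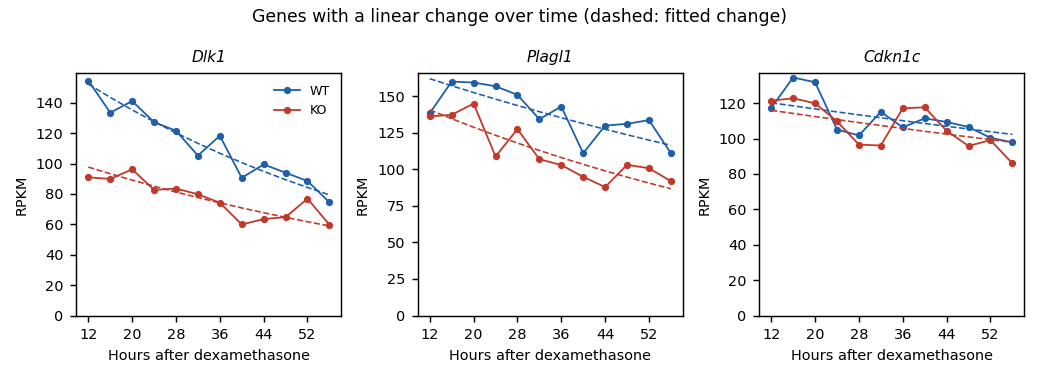
RPKM against hours after dexamethasone for the 3 imprinted genes that fell with time, with WT in blue, KO in red, 1 library per point and the fitted linear change as dashed curves. Dlk1 drops from 155 to 74.5 RPKM in WT and from 91.0 to 59.8 RPKM in KO, so that the distance between the lines narrows in RPKM while the tested difference in log2 slope did not pass.

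No difference in linear change between the genotypes was called. Dlk1 had a log2 slope of -0.51 per 24 h in WT and -0.40 per 24 h in KO, a difference of 0.12 ± 0.09 (limma, adjusted p = 0.866). In this interaction test 0 of 48 imprinted genes and 0 of 15112 genes passed (limma), and 3 imprinted genes (Cobl, Mcts2 and Sgce, 6.25%) had an unadjusted p under 0.05, as had 6.38% of all genes.

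Rhythms of 24 h were likewise not called. With limma, 0 of 48 imprinted genes passed for a cosine shared by the genotypes, where 0.086% of all genes passed. At an unadjusted p under 0.05 there were 11 of 48 (22.9%), against 11.7% of all genes, namely Cdkn1c, Cobl, Commd1, Copg2, Dio3, Mcts2, Mest, Ndn, Peg10, Slc38a4 and Zdbf2. The lowest of these adjusted p-values was that of Cdkn1c (limma, 0.266), with fitted log2 amplitudes of 0.10 in WT and 0.14 in KO. For a difference in rhythm between genotypes 0 of 48 passed (limma), and 2 (Peg13 and Trappc9, 4.17%) had an unadjusted p under 0.05, against 4.82% of all genes.

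Whether neighbours within a cluster varied together between libraries was tested within each genotype, so that the genotype difference played no part. With 37 genes at 1 RPKM or more in both genotypes, 18 neighbouring pairs gave 36 tests, each with 100000 permutations and Benjamini-Hochberg adjustment over the 36, and 8 passed by Pearson's r, all positive. These were the same 4 pairs in WT and in KO. Neighbouring pairs of genes off the list were not tested, so this count has no background share beside it. By Spearman's rho 10 passed, and the additional 2 passed in 1 genotype. Copg2 and Klf14 had rho = 0.832 in KO (permutation adjusted p = 0.0058) and -0.406 in WT (adjusted p = 0.45), and Snrpn and Ndn had rho = 0.755 in WT (permutation adjusted p = 0.0228) and 0.224 in KO (adjusted p = 0.7). Their r was 0.547 in KO and -0.247 in WT for Copg2 with Klf14 and 0.672 in WT and 0.391 in KO for Snrpn with Ndn, and the difference between genotypes was not tested. Meg3 and Rian had Pearson's r = 0.917 in WT (permutation adjusted p = 0.00072) and 0.861 in KO (adjusted p = 0.00247), with Spearman's rho of 0.944 and 0.860. Rian and Mirg had r = 0.924 in WT (permutation adjusted p = 0.00072) and 0.904 in KO (adjusted p = 0.0013), with rho of 0.902 and 0.846. The maternally expressed RNAs of the Dlk1-Dio3 cluster thus rose and fell together between libraries, and without the 2 libraries farthest from the median of the first gene r was still 0.818 and 0.787 for Meg3 with Rian and 0.893 and 0.756 for Rian with Mirg.

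No co-variation of the paternally expressed Dlk1 with Meg3 was called, with r = 0.426 in WT (permutation adjusted p = 0.403) and 0.36 in KO (adjusted p = 0.458) and rho of 0.364 and 0.147. Zim1 and Peg3, which are expressed from opposite parental alleles, had r = 0.821 in WT (permutation adjusted p = 0.00319) and 0.870 in KO (adjusted p = 0.00198), with rho of 0.832 and 0.825, and without the 2 farthest libraries r was 0.731 and 0.721. Mest and Copg2 had r = 0.892 in WT (permutation adjusted p = 0.00117) and 0.926 in KO (adjusted p = 0.00084), with rho of 0.916 and 0.944, and 0.911 and 0.927 without the 2 farthest libraries. The 2 genes overlap by 913 bases from start to end on opposite strands, so shared reads cannot be told apart from shared variation in that pair. Igf2 and H19, which depend on shared enhancers, had r = -0.36 in WT (permutation adjusted p = 0.458) and -0.0523 in KO (adjusted p = 0.887). Over all pairs of these 37 genes, the median r was 0.197 in WT and 0.36 in KO for the 27 pairs within a locus, and 0.00298 and 0.0549 for the 639 pairs between loci, values that share libraries and are given as a description.

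**Figure D4:**
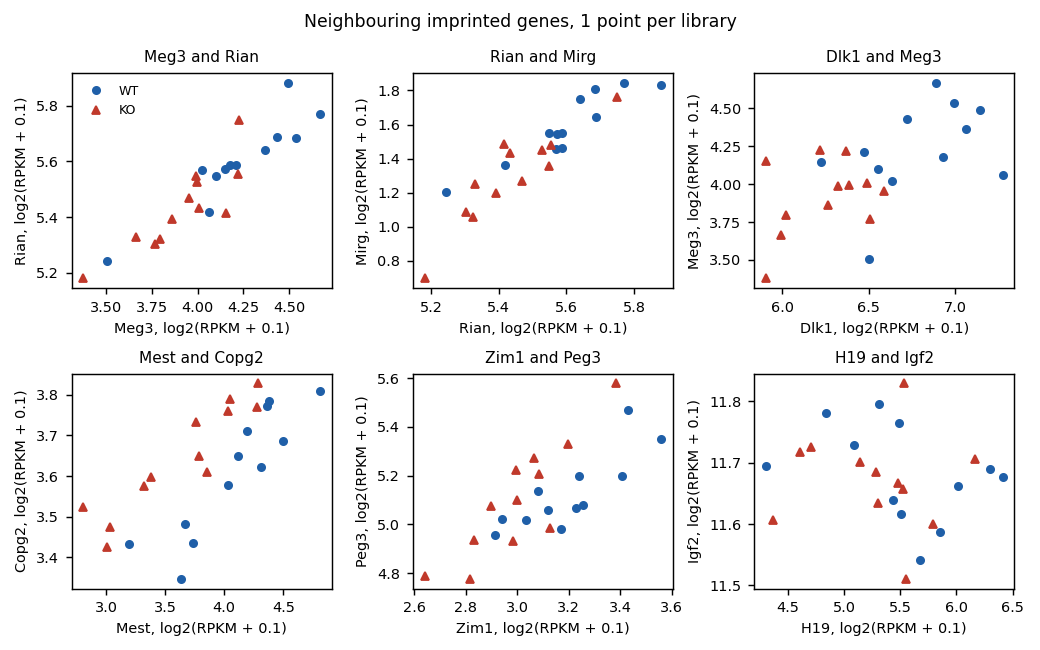
Level of one neighbour against the other, both as log2(RPKM + 0.1), for 6 pairs, with WT libraries as blue circles and KO libraries as red triangles. Meg3 with Rian, Rian with Mirg, Mest with Copg2 and Zim1 with Peg3 rise together within each genotype (r from 0.821 to 0.926), while Dlk1 with Meg3 and H19 with Igf2 scatter.

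Libraries of a genotype differed widely in the level of some imprinted genes. The standard deviation of log2(RPKM + 0.1) within a genotype lay above the median of expressed genes within 2-fold of the same level for 35 of 48 imprinted genes, and above their 90th percentile for 13. Peg10 and H19 lay at the 98.9th percentile, with standard deviations of 0.55 and 0.56 where the median of like genes was 0.09. Mest (0.48, 98.6th percentile), Nnat (0.40, 97.2nd), Meg3 (0.28, 96.8th) and Slc38a4 (0.25, 95.7th) followed among genes above 10 RPKM. Phlda2 (98.6th percentile), Sfmbt2 (94.5th), Snrpn (94.3rd), Magel2 (94.0th), Dlk1 (92.7th), Peg3 (92.6th) and Zim1 (90.8th) made up the 13. Phlda2 reached 3.11 RPKM (WT) and 2.94 RPKM (KO) at 16 h and had 3 fragments in its lowest library, so counting error is part of its spread and of that of Magel2. The spread of Dlk1 includes its fall with time. At the other end was the paternally expressed Kcnq1ot1 (percentile 0 of 43 genes), whose level lies under the pseudocount, which narrows its spread. Blcap (4.03rd percentile), Ppp1r9a (7.48th) and Trappc9 (9.85th), maternally expressed in some tissues, were also at this end. Percentiles describe these libraries and were not tested.

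**Figure D5:**
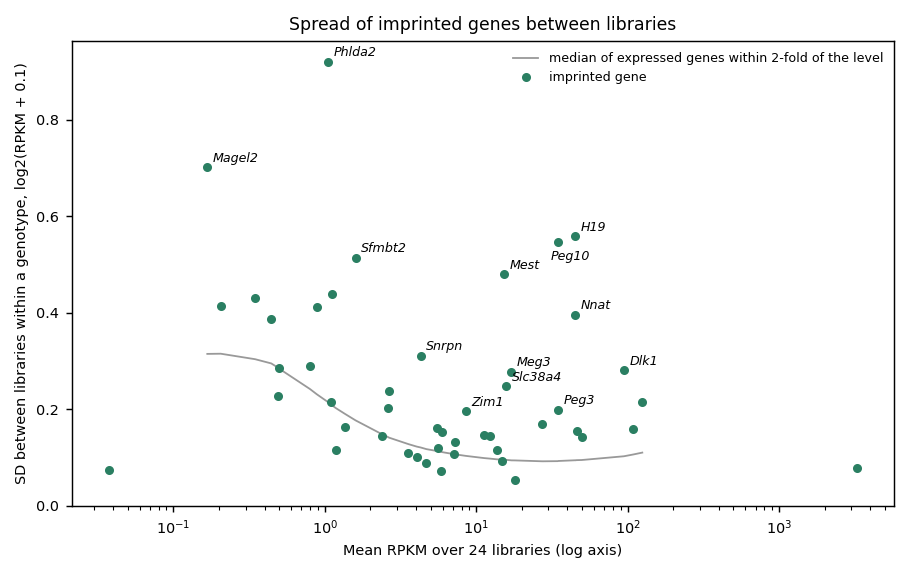
Standard deviation of log2(RPKM + 0.1) between libraries of a genotype against mean RPKM over 24 libraries (log axis) for the 48 imprinted genes, with the median of expressed genes within 2-fold of each level as a grey line. The 13 named genes lie above the 90th percentile of genes of like level, and among genes above 10 RPKM H19 (0.56), Peg10 (0.55) and Mest (0.48) are highest.

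Markers of cell types moved with genotype, and their part in the differences of imprinted genes was not tested. The summed level of 7 neuronal markers, all with lower means in KO, ranged from 3.72 to 35.6 RPKM in WT (median 11.3) and from 2.19 to 11.9 RPKM in KO (median 3.85). That of 5 epithelial markers, all with higher means in KO, ranged from 147 to 287 RPKM in WT and from 261 to 435 RPKM in KO, higher at 12 of 12 time points. The sum of 8 mesenchymal markers ranged from 2339 to 2902 RPKM in WT and from 2547 to 3503 RPKM in KO, and Col1a1, Col1a2 and Col3a1 gave most of it. These 8 did not move as one, since 5 had a higher mean in KO and 3 a lower mean (Lum, Pdgfra and Twist1). Trophoblast markers, of interest beside Phlda2, Peg10, Sfmbt2 and Ascl2, had a summed level of 19.7 to 111 RPKM in WT and 29.6 to 104 RPKM in KO. The endoderm and liver sum ranged most widely, from 79.6 to 1026 RPKM in WT and from 84.0 to 1030.0 RPKM in KO. Sums over the other lists, like those above, overlapped between genotypes. They ranged from 250.4 to 342 RPKM in WT and 267 to 379.7 RPKM in KO for 5 smooth muscle markers, and from 44.3 to 75.4 and 53.7 to 93.6 RPKM for 9 striated muscle markers. Endothelial markers summed to 5.29 to 18.6 and 9.23 to 17.3 RPKM, leukocyte markers to 92.3 to 109 and 99.8 to 111 RPKM, and pluripotency markers to 1.31 to 9.18 and 0.999 to 5.10 RPKM. A sum can hide its members, since Tnnt2 was lower in KO (-0.31) while Myh7 (0.86) and Actc1 (1.01) were higher at 12 of 12 time points. The log2 difference was above 0 for 7 of 8 striated muscle markers past the filter, 4 of 5 smooth muscle and 4 of 5 endothelial markers. It was above 0 for 4 of 6 leukocyte and 1 of 3 pluripotency markers, and for 45.9% of all genes. No marker was at 0 in every library.

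Factors that set or keep imprints were read from a list of 22 genes, of which 19 passed the filter. Of these, 2 were called for KO against WT, where 25.9% of all genes were, and both were lower in KO. Zfp57, whose protein binds the sequence shown in the promoters above, ranged from 6.36 to 10.3 RPKM in WT and from 4.62 to 7.73 RPKM in KO and was lower at 12 of 12 time points (-0.36). Dnmt3a, a DNA methyltransferase that writes new methylation, ranged from 6.73 to 7.95 RPKM in WT and from 5.75 to 7.11 RPKM in KO (-0.18). The other 17, among them Dnmt1, which copies methylation to new strands, and Trim28, the partner of ZFP57, were not called, and the median of the 19 was -0.03 against -0.01 for all genes. None of the 19 was called for the linear change in time (limma, 3 at an unadjusted p under 0.05), where 8.06% of all genes were.

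A second list of 44 genes described as imprinted in mouse, apart from the 50, had 30 past the filter, and 8 of these were called for KO against WT, beside 25.9% of all genes. Grb10, Gnas, Atp10a and Begain were among those lower in KO, and Pon3, Qpct and Ddc were higher. Grb10 (-4.48) had the lowest value of this list, and Gnas, the gene of a stimulatory G protein, was at 219 RPKM (WT) and 167 RPKM (KO), with a log2 difference of -0.39. The median of the 30 was -0.01, as for all genes.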

How the data were processed

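PolyA-selected RNA of 12 WT and 12 KO libraries was read as 101-bp pairs. Reads were trimmed with Trimmomatic (0.36), mapped to GRCm38/mm10 with STAR (2.5.4b), filtered at mapping quality 10 and counted on UCSC exons with HOMER by the authors, who deposited RPKM (versions from the submitters' processing notes). Strand use is not given in the sources used here. RPKM times exon length and the library total of the file header gave whole half-fragments for 100% of values (tolerance 0.01), from which RPM and fragments were taken. Genes with a mean above 0.5 RPM in WT or KO were fitted as log2(RPKM + 0.1) with limma (3.58.1, R 4.3.3) over all 24 libraries: a 2-group fit, and a fit of genotype, time, a 24 h cosine and sine and their genotype interactions, adjusted by Benjamini-Hochberg over 15112 genes. A fold change on this scale understates the change of low genes. The fits were tested on simulated data. Pairs, promoters and figures used Python 3.11.15. The genes and lists were chosen with earlier results of these data known. Ranges are given for genes called in any fit, for genes differing by over 0.25 (log2) at 1 RPKM or more, and for the most abundant gene of each locus. Other non-list genes come from a second imprinted list, an imprint-maintenance list, marker lists, or the 3 nearest expressed genes on each side. SE is over libraries. As the libraries of a genotype are different time points, p-values measure only the spread between these libraries. Alternatives were other pseudocounts, filters, scaling, periods and a time-point block, and leaving out time points.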

Additional observations from a re-analysis of the deposited data

How the results depend on the processing

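Every count given for the comparisons stayed within 1.5 times its value under the alternatives tried, and no called difference or slope of an imprinted gene changed sign. Between 14 and 20 imprinted genes were called for KO against WT, and leaving out a time point in both genotypes gave 14 to 16. Klf14 was lost without 12 h or 40 h, Mirg without 20 h or 48 h, Mcts2 without 12, 20, 24 or 28 h, and Zrsr1 without 12, 16, 32, 36, 44, 52 or 56 h or with no filter on low values. Rtl1 was not tested where a mean of 1 RPKM was required. With the time point as a replicate block, 20 were called against 16 without it, adding Mest, Mkrn3, Rian and Zim1. Libraries of the same time point did not pair throughout, since their deviations correlated at a mean of 0.163 with a range from -0.175 to 0.389, against -0.0149 for different time points, and the block left both interaction counts at 0. The linear change called 2 to 4 genes (2 to 3 when a time point was left out). Cdkn1c was also lost when the last 6 time points were set against the first 6, and Dio3 passed with a pseudocount of 1. Rhythm and interaction counts stayed at 0 and the count of pairs called by Pearson's r at 8, with 10 by Spearman's rho. Quantile normalization moved the median of all genes from -0.0127 to -0.00506 and turned the difference of Kcnq1ot1 from -0.00 to 0.21, which was then called. A pseudocount of 1 moved that of Kcnq1 from 0.87 to 0.43. Depth limits genes under 1 RPKM, where a library could hold under 20 fragments. Intervals for single counts were not computed, and PCR reads without molecular identifiers are not independent molecules.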
